A study of Mus musculus with 6 samples.

Results

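Antioxidant and redox defence genes were followed in mouse embryonic stem cells after siRNA against Ncl, the gene of the nucleolar protein nucleolin. The set was given as 10 gene symbols, namely Sod1, Sod2, Gpx3, Mgst1, Hmox1, Nqo1, Gclc, Gclm, Txnrd1 and Slc7a11, and every probe set annotated to exactly 1 of them was taken. That gave 10 of 18194 genes and 23 of 45101 probe sets. The cells were E14Tg2a, a single mouse embryonic stem cell line, and each array held total RNA from cells labelled 96 h. Per the series' design text, cells of the first group received Ncl siRNA #1, those of the next Ncl siRNA #2, and those of the last a control duplex against firefly luciferase, a gene that mouse cells lack. Each group held 2 Affymetrix arrays, and all 3 groups had been transfected with an siRNA. The labels do not say whether the 2 arrays of a group came from separate cultures, and each p-value below therefore rests on array spread that may be technical. Values are on a log2 scale whose zero differs between probe sets, so a level is compared between arrays and never between genes.

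Cells keep superoxide and peroxides low through linked enzymes. Superoxide dismutases turn superoxide into hydrogen peroxide, glutathione peroxidases and peroxiredoxins reduce peroxides to water or alcohols, and glutathione and thioredoxin supply the electrons. Glutathione is made from cysteine, glutamate and glycine, and glutamate-cysteine ligase sets its rate of synthesis. Many genes of the system share a transcriptional activator, NRF2 (gene Nfe2l2), which the adaptor KEAP1 holds at low levels until oxidants or electrophiles modify it. The repressor BACH1 competes with NRF2 for the same DNA element.

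Ncl itself read 13.77 and 13.74 with Ncl siRNA #1, 13.77 and 13.72 with Ncl siRNA #2, and 14.21 and 14.21 in the control siRNA arrays, on the brightest of its 5 probe sets. The mean of both siRNAs stood at 72.7% of control on that probe set (log2 -0.46, SE 0.03, limma adjusted p = 3.39e-10). All 5 probe sets of Ncl were called lower, and with them averaged the change was larger, at -0.96 (limma adjusted p = 6.80e-08). Of 8 embryonic stem cell markers 6 were called lower and 1 higher in the mean of both siRNAs (list median -0.40), and with siRNA #2 alone 7 were lower. In the mean of both, 21.7% of all genes were called lower and 20.3% higher, the background for each marker list here. The summed level of the stem cell markers was 63670 to 73121 linear units in the Ncl siRNA arrays, against 83423 and 82908 in the control siRNA arrays. Pou5f1, 1 of those called lower, stayed bright, at 13.00 to 13.32 in the Ncl siRNA arrays, against 13.56 and 13.61 in the control siRNA arrays. This shift accompanies every comparison of the redox genes with control, and its part in them was not tested. The 2 control siRNA arrays stood apart in that they carried transcripts of lung cells. The summed level of 7 airway secretory markers was 200 to 251 in the Ncl siRNA arrays and 9358 and 9552 in the control siRNA arrays, and 6 of the 7 were called lower with Ncl siRNA. Among them Scgb1a1, Bpifa1 and Cyp2f2 were under the lower quartile on each Ncl siRNA array. For 6 alveolar type 2 markers the sum was 600 to 742 in the Ncl siRNA arrays, against 2641 and 2977 in the control siRNA arrays, and 4 were called lower and 1 higher. For 7 heart muscle markers it was 276 to 322 in the Ncl siRNA arrays, against 629 and 742 in the control siRNA arrays, with 6 called lower. For 6 lung mesenchyme markers it was 406 to 457 in the Ncl siRNA arrays, against 576 and 704 in the control siRNA arrays, with 4 called lower and 1 higher. For 6 endothelial markers it was 1065 to 1661 in the Ncl siRNA arrays, against 1995 and 1838 in the control siRNA arrays, with 3 lower and 1 higher. Of 5 alveolar type 1 markers 3 were called lower, among them Ager at -2.92 and Hopx at -1.45, and 1 higher, Pdpn at 2.24. Their sums overlapped, at 2593 to 3318 in the Ncl siRNA arrays and 2629 and 2832 in the control siRNA arrays. Macrophage and leukocyte sums also overlapped (545 to 632 in the Ncl siRNA arrays, 547 and 528 in the control siRNA arrays), with 2 of 7 lower and 1 higher. The added poly-A control RNAs averaged 8.39 to 8.86 in the Ncl siRNA arrays, against 7.74 and 7.58 in the control siRNA arrays. The hybridisation controls went the other way, at 11.15 to 11.25 in the Ncl siRNA arrays, against 11.98 and 12.07 in the control siRNA arrays. Lung tissue also expresses Gpx3, Mgst1 and Sod2, so these marker values stand beside their results below. Both control arrays carry the lung transcripts, so this difference and the siRNA cannot be told apart in any comparison against control.

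**Figure D1:**
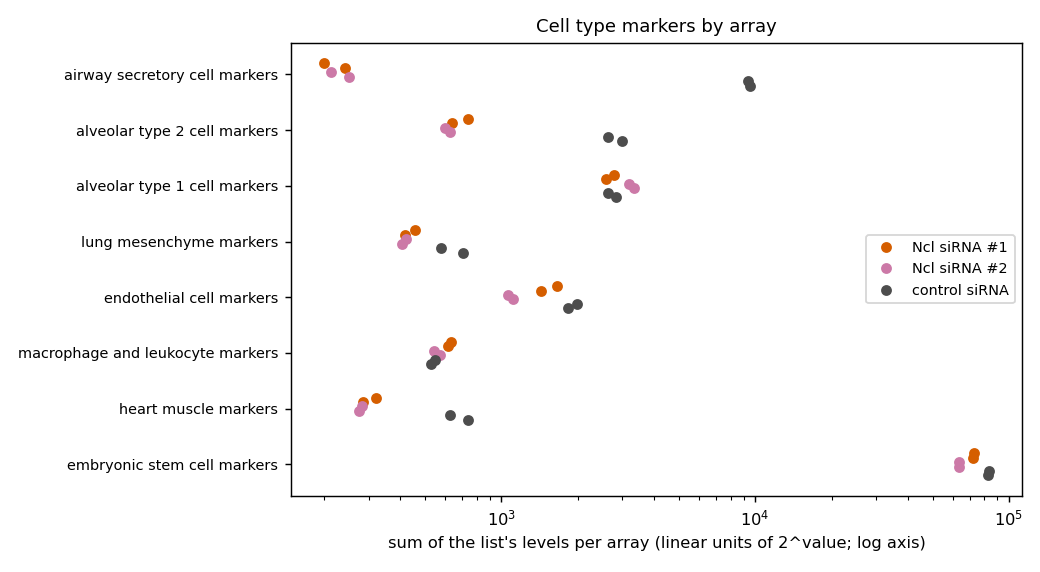
Summed level of each cell type marker list on each of the 6 arrays, in linear units of 2 raised to the log2 value, on a log axis. The airway secretory markers sum to 200 to 251 in the Ncl siRNA arrays and to 9358 and 9552 in the control siRNA arrays, and the stem cell markers sum to 63670 to 73121 in the Ncl siRNA arrays and to 83423 and 82908 in the control siRNA arrays.

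Against the control siRNA, the mean of both Ncl siRNAs was higher for 3 of the 10 genes and lower for 5, at a limma adjusted p under 0.05 over all genes, and 2 did not pass. In the same comparison 42.0% of all 18194 genes, dim ones included, were called, 20.3% higher and 21.7% lower. The median change was -0.12 for the 10 genes and -0.05 for all genes. Gpx3 and Hmox1 rose by 2.44 and 0.98 on the log2 scale, while Mgst1, Sod2 and Nqo1 fell by 1.39, 1.07 and 0.87. Changes in Gclc, Gclm and Sod1 passed the test but were small, at 0.16, -0.28 and -0.20. All 4 Ncl siRNA arrays lay above both control arrays for 3 of the genes and below both for 5, whereas 50.2% of all genes had such separate groups, 23.4% above and 26.7% below. In bulk RNA such as this, fewer cells that express a gene and less RNA per cell cannot be told apart.

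**Figure D2:**
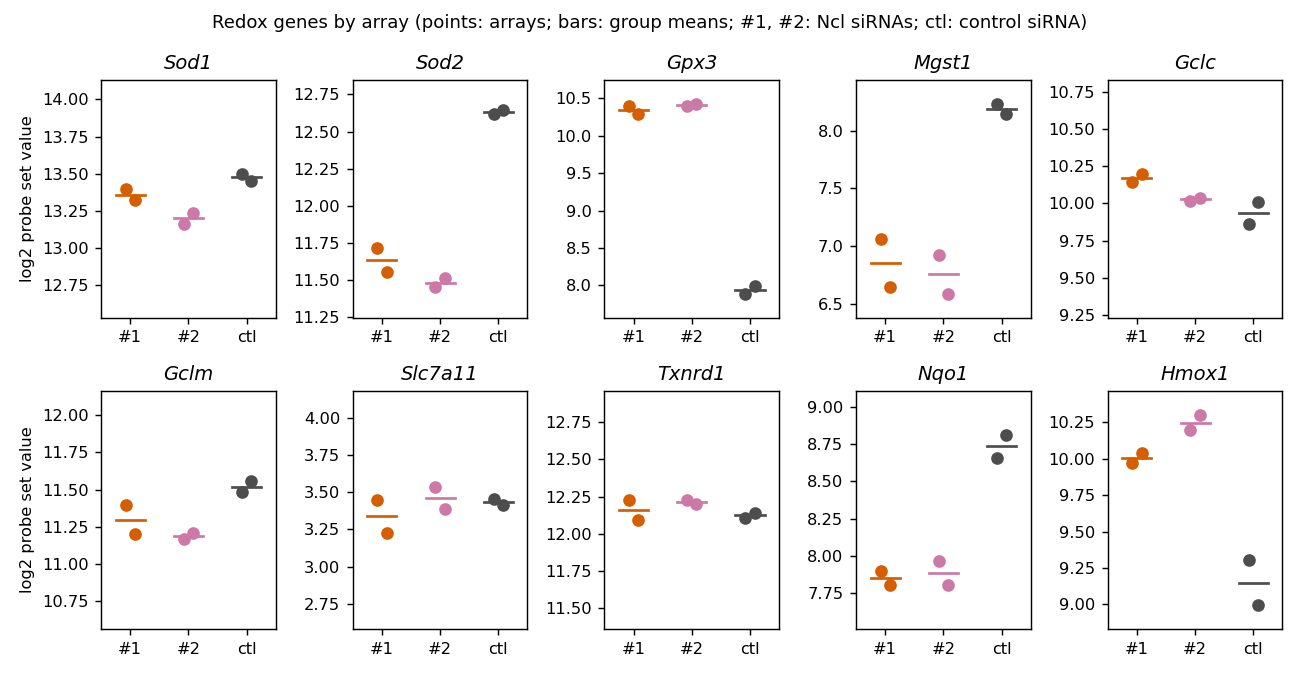
Log2 value of the brightest probe set of each of the 10 genes on every array, with points for arrays and bars for group means, from left Ncl siRNA #1, Ncl siRNA #2 and control siRNA, each with 2 arrays. The axis spans at least 1.6 log2 units in each panel. Gpx3 reads 10.29 to 10.43 in the Ncl siRNA arrays against 7.89 and 7.99 in the control arrays, and Sod2 reads 11.45 to 11.72 against 12.62 and 12.65.

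NRF2 acts at the antioxidant response element, whose core TGACNNNGC was searched on both strands in the 250 bases before each annotated transcript start, where N is any base. RefSeq windows (GRCm38.p6) matched 8 of the 10 genes with 11 starts, and the core was found before 4 of these starts, in Sod1, Mgst1, Gclm and Txnrd1. Gclc and Hmox1 had no window and were not searched. Of all 32851 windows 10.2% hold it, and of all 27025 genes with a window 11.5%. The 79 bases around each match are shown because these are the searched genes of the set that carry the core near a start. The match is in capitals, read 5′ to 3′ on the plus strand, which is the strand of all 4 genes. In each the core lies on the minus strand, so its reverse complement is what the capitals spell.
Sod1, chr16:90220671-90220749: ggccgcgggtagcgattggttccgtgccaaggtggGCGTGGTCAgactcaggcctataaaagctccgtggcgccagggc
Mgst1, chr6:138140436-138140514: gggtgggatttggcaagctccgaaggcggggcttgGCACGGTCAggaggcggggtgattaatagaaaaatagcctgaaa
Gclm, chr3:122245388-122245466: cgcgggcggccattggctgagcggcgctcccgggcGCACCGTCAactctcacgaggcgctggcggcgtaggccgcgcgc
Txnrd1, chr10:82859079-82859157: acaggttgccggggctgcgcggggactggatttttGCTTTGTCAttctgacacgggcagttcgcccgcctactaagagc
The Mgst1 match lies before the first of 2 annotated starts and the Txnrd1 match before the second of 3, and the windows of their other starts hold none. Of these 4 genes, Sod1, Mgst1 and Gclm were called lower and Txnrd1 was not called on its brightest probe set. Among the searched genes without the core, Sod2 and Nqo1 were also called lower, Gpx3 higher and Slc7a11 not called. Of all genes 21.7% were called lower. A match is a description of letters and no sign of binding, and the windows of Gpx3, Sod2, Nqo1 and Slc7a11 hold no match of these letters.

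Both superoxide dismutases were lower, Sod2 by much more than Sod1. Sod2 encodes the manganese enzyme of the mitochondrial matrix. On its brightest probe set it read 11.72 and 11.56 with Ncl siRNA #1, 11.45 and 11.52 with Ncl siRNA #2, and 12.62 and 12.65 in the control siRNA arrays. Every Ncl siRNA array lay well below both control arrays. Under siRNA #1 Sod2 stood at 50.3% of its control level (log2 -0.99, SE 0.06, limma adjusted p = 7.05e-12, 2 arrays per group). Under siRNA #2 it stood at 45.2% (log2 -1.15, SE 0.06, limma adjusted p = 4.93e-13). Its 4 probe sets all read lower. The 3 brighter ones gave mean changes of -1.07, -1.08 and -1.17, and the dimmest, which read 5.80 to 6.25 on all arrays, gave -0.34 and did not pass (SE 0.14, limma adjusted p = 0.0706 over 45037 probe sets). Airway secretory markers were also lower in the same Ncl siRNA arrays, with a list median of -3.14, and their part in the Sod2 difference was not tested.

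Sod1 encodes the copper and zinc dismutase of the cytosol. Its brightest probe set read 13.39 and 13.33 with Ncl siRNA #1, 13.16 and 13.23 with Ncl siRNA #2, and 13.50 and 13.45 in the control siRNA arrays. The groups did not overlap, but the gap between the highest Ncl siRNA array and the lowest control array was small beside that of Sod2. Sod1 fell by 0.20 in the mean of both siRNAs (SE 0.04, limma adjusted p = 2.42e-04), so that its mean stood at 87.2% of control, and this call was lost with variances that follow no trend (adjusted p = 0.0769). For siRNA #1 alone the change of -0.12 passed only narrowly (SE 0.04, limma adjusted p = 0.0464), and that call was lost on leaving out any array except replicate 1 of siRNA #1 (adjusted p 0.0603 to 0.278), and with the replicate block (0.0575). Quantile normalization, averaged probe sets, variances without a trend, array weights and the fit of only the groups compared also ended it (adjusted p 0.0606 to 0.334). The 5 probe sets of Sod1 did not move alike. Its second brightest fell by 0.43 (SE 0.04, limma adjusted p = 1.22e-07 over probe sets) and a dimmer one fell by 0.56 (SE 0.11, adjusted p = 6.99e-04), while another rose by 0.35 (SE 0.11, adjusted p = 0.0179). That last probe set read 8.04 and 7.85 with siRNA #1, 7.69 and 7.76 with siRNA #2, and 7.59 and 7.38 in the control siRNA arrays. The faintest lay below the lower quartile on all 6 arrays.

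The peroxide-reducing and conjugating enzymes Gpx3 and Mgst1 had the largest changes of the 10 genes in the mean of both siRNAs on the brightest probe set of each gene. Gpx3 encodes a secreted selenium-dependent glutathione peroxidase, the form found in blood plasma. It had 1 probe set, which read 10.39 and 10.29 with Ncl siRNA #1, 10.39 and 10.43 with Ncl siRNA #2, and 7.89 and 7.99 in the control siRNA arrays. The 4 Ncl siRNA arrays lay close together and far above both controls. The rise in Gpx3 was 2.41 for siRNA #1 (limma adjusted p = 4.21e-16, SE 0.08) and 2.47 for siRNA #2 (limma adjusted p = 2.05e-16, SE 0.08). In the mean of both it stood 5.42-fold above control, and 0.682% of all genes had a larger absolute change. Airway secretory markers were lower in the same Ncl siRNA arrays, with a list median of -3.14, and their part in the Gpx3 difference was not tested.

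Mgst1, which carries the core before the first of its 2 annotated starts, encodes a membrane-bound glutathione transferase of the endoplasmic reticulum and outer mitochondrial membrane that also reduces lipid peroxides. It read 7.06 and 6.64 with Ncl siRNA #1, 6.92 and 6.59 with Ncl siRNA #2, and 8.24 and 8.14 in the control siRNA arrays. The Ncl siRNA arrays were all lower, and arrays of the same siRNA lay further apart than the 2 controls did. Mgst1 fell by 1.39 in the mean of both siRNAs (SE 0.13, limma adjusted p = 1.57e-08), to 38.2% of control, and 3.14% of all genes had a larger absolute change. The call rests on 1 of its 2 probe sets, of the kind that Affymetrix names for reading alternative transcripts of a gene. The other lay below the lower quartile on all 6 arrays and gave -0.06 (SE 0.13, limma adjusted p = 0.782 over probe sets). With both averaged the change was -0.72 (adjusted p = 5.51e-04). Alveolar type 2 and airway markers were lower in the same arrays, with list medians of -0.97 and -3.14, and their part in the Mgst1 difference was not tested.

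**Figure D3:**
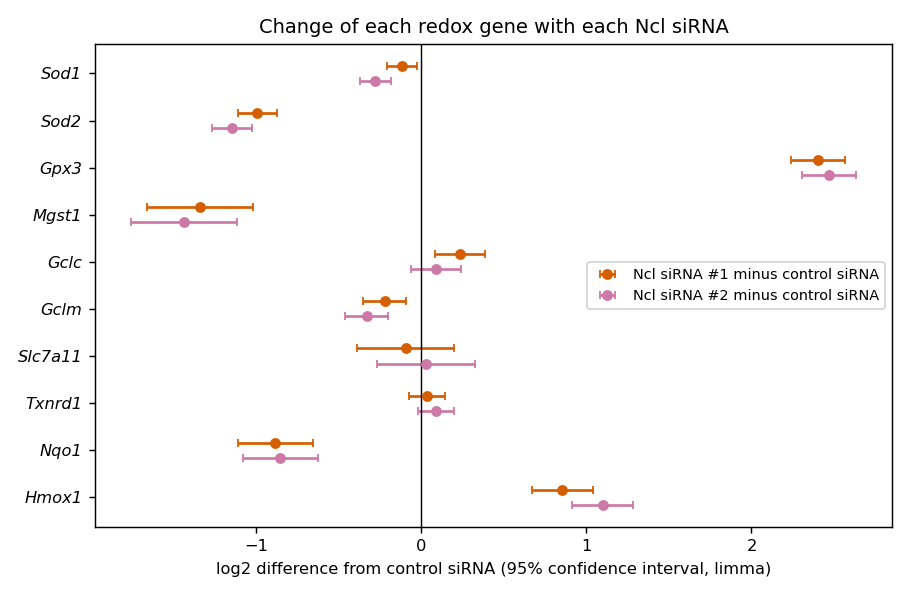
Log2 difference of each of the 10 genes from the control siRNA, for Ncl siRNA #1 and Ncl siRNA #2, with 95% confidence intervals from limma. Both siRNAs share the 2 control arrays. Gpx3 lies at 2.41 and 2.47 and Hmox1 at 0.85 and 1.10, Mgst1 lies at -1.34 and -1.44, and the intervals of Txnrd1 and Slc7a11 include 0 for both siRNAs.

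Genes of glutathione synthesis moved little. Gclc encodes the catalytic subunit of glutamate-cysteine ligase. Its brightest probe set read 10.15 and 10.20 with Ncl siRNA #1, 10.02 and 10.04 with Ncl siRNA #2, and 9.86 and 10.01 in the control siRNA arrays. The lowest Ncl siRNA array lay just above the higher control array. Gclc passed with siRNA #1 (0.24, SE 0.07, limma adjusted p = 0.0128) and did not with siRNA #2 (0.09, SE 0.07, limma adjusted p = 0.372). The call with siRNA #1 was lost without control replicate 1 (0.16, adjusted p = 0.197), with averaged probe sets (0.16, 0.0822), without suffixed probe sets (0.08, 0.475) and with variances that follow no trend (0.0931). The difference between the siRNAs was -0.15 for siRNA #2 minus siRNA #1 and did not pass either (95% confidence interval -0.30 to 0.01, limma adjusted p = 0.224). In the mean of both siRNAs the change was 0.16 (SE 0.06, limma adjusted p = 0.0413), and that call was lost without control replicate 1 (0.09, adjusted p = 0.465), without either array of siRNA #2 (0.0964 and 0.123), and with each array centred on its median (0.136). It was also lost with averaged probe sets (0.09, adjusted p = 0.221), without suffixed probe sets (0.02, 0.854), with variances that follow no trend (0.151) and with the replicate block (0.0563). In the fit over all probe sets the same probe set did not pass (limma adjusted p = 0.0730), and the other probe set of Gclc gave 0.02 (SE 0.07, limma adjusted p = 0.873 over probe sets).

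Gclm, whose start window holds the core, encodes the modifier subunit, which lowers the ligase's need for glutamate and eases its inhibition by glutathione. It read 11.39 and 11.20 with Ncl siRNA #1, 11.17 and 11.21 with Ncl siRNA #2, and 11.48 and 11.55 in the control siRNA arrays. All 4 Ncl siRNA arrays were lower than both controls, 1 of them narrowly. Gclm fell by 0.28 in the mean of both siRNAs (SE 0.06, limma adjusted p = 2.69e-04), to 82.5% of control. The call with siRNA #1 alone (-0.22, SE 0.06, limma adjusted p = 0.00814) was lost without replicate 2 of siRNA #1 (-0.13, adjusted p = 0.0919) and without control replicate 2 (-0.19, adjusted p = 0.0909). It was also lost with averaged probe sets (-0.14, adjusted p = 0.119) and with variances that follow no trend (0.134). The dimmer probe set gave -0.21 in the mean of both and did not pass (SE 0.08, limma adjusted p = 0.0570 over probe sets).

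Slc7a11 encodes the cystine and glutamate exchanger that brings in cystine for glutathione. Both of its probe sets lay below the lower quartile on all 6 arrays, at 3.12 to 3.53 in the Ncl siRNA arrays and at 3.17 to 3.45 in the control siRNA arrays. These readings give no usable level, so a change of the transcript could go unseen here. The brighter probe set gave -0.03 in the mean of both siRNAs (95% confidence interval -0.29 to 0.22, limma adjusted p = 0.861). Its partner chain in the exchanger, Slc3a2, was bright and rose by 0.27 (SE 0.05, limma adjusted p = 1.84e-04).

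Txnrd1 encodes the cytosolic thioredoxin reductase, a selenoenzyme that passes electrons from NADPH to thioredoxin. Its brightest probe set read 12.22 and 12.09 with Ncl siRNA #1, 12.23 and 12.20 with Ncl siRNA #2, and 12.11 and 12.14 in the control siRNA arrays. Those groups overlapped, and the mean change was 0.06 (95% confidence interval -0.03 to 0.16, limma adjusted p = 0.312). Without replicate 2 of siRNA #1 it passed narrowly (0.10, adjusted p = 0.0485). The other probe sets of the same gene did otherwise. One read 7.22 and 6.77 with Ncl siRNA #1, 7.55 and 7.42 with Ncl siRNA #2, and 8.87 and 8.52 in the control siRNA arrays, and fell by 1.45 in the mean of both (SE 0.13, limma adjusted p = 1.63e-07 over probe sets). The other read 5.81 and 5.61 with Ncl siRNA #1, 6.07 and 5.97 with Ncl siRNA #2, and 6.67 and 6.63 in the control siRNA arrays, and fell by 0.79 (SE 0.14, adjusted p = 2.09e-04). Both showed all 4 Ncl siRNA arrays below both controls. With the mean of all 3 probe sets in place of the brightest, Txnrd1 was called lower by -0.72 (adjusted p = 4.13e-05). No sequence of these probe sets was used here, so which transcripts each one reads is not stated.

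**Figure D4:**
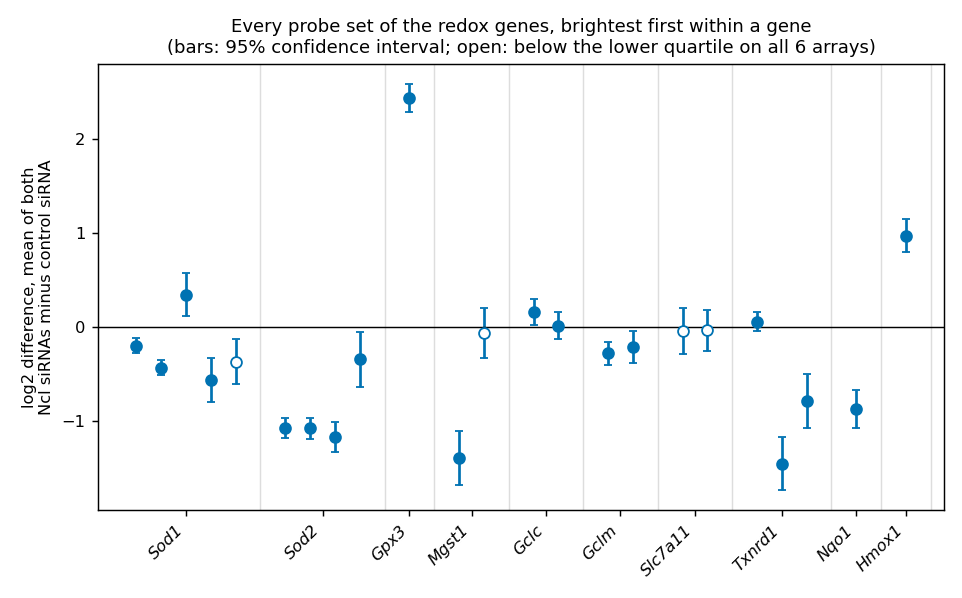
Log2 difference of the mean of both Ncl siRNAs minus the control siRNA for all 23 probe sets, grouped by gene with the brightest at left, with 95% confidence intervals from the fit over all probe sets. Open points lie below the lower quartile on all 6 arrays. For Txnrd1 the brightest probe set lies at 0.06 and the others at -1.45 and -0.79, and for Sod1 4 probe sets lie below 0 and 1 at 0.35.

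Nqo1 and Hmox1, both textbook targets of NRF2, moved in opposite directions. Nqo1 encodes a reductase that takes quinones straight to hydroquinones. It read 7.90 and 7.81 with Ncl siRNA #1, 7.96 and 7.80 with Ncl siRNA #2, and 8.66 and 8.81 in the control siRNA arrays. All Ncl siRNA arrays lay well below both controls, with log2 changes of -0.89 for siRNA #1 (limma adjusted p = 9.19e-07, SE 0.11) and -0.85 for siRNA #2 (limma adjusted p = 1.23e-06, SE 0.11). Its mean stood at 54.7% of control.

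Hmox1 encodes the inducible haem oxygenase, which breaks haem into biliverdin, iron and carbon monoxide and is also repressed by BACH1. It read 9.97 and 10.04 with Ncl siRNA #1, 10.19 and 10.30 with Ncl siRNA #2, and 9.30 and 8.99 in the control siRNA arrays. The control arrays lay further apart than those of either Ncl siRNA, and still lay below every Ncl siRNA array. The rise in Hmox1 was 0.85 for siRNA #1 (limma adjusted p = 7.39e-08, SE 0.09) and 1.10 for siRNA #2 (limma adjusted p = 1.24e-09, SE 0.09), and its mean stood 1.97-fold above control. Nqo1 and Hmox1 each had 1 probe set.

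Counted over single probe sets, 12 of the 23 were lower, 3 higher and 8 not called in the mean of both siRNAs, where 31.5% of 45037 probe sets were called in either direction. With siRNA #1 alone 4 were higher and 10 lower (27.1% of all probe sets called), and with siRNA #2 alone 2 were higher and 13 lower (28.5% called). Of the 4 probe sets below the lower quartile on all arrays, 1 was called. Taken by siRNA at the gene level, 3 of the 10 genes were higher and 5 lower with siRNA #1 (37.4% of all genes called, 20.2% higher and 17.3% lower), and 2 were higher and 5 lower with siRNA #2 (39.5% called, 17.7% higher and 21.7% lower). Both comparisons share the control arrays.

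The Ncl siRNAs were then set against each other, a comparison in which the control arrays provide no mean and the airway markers are low on both sides. Of the 10 genes, 1 was lower with siRNA #2 and 0 higher in limma, whereas 8.48% of all genes were called, 2.30% higher and 6.18% lower. At an unadjusted p under 0.05 there were 2 lower and 1 higher, and no share of all genes is given at that threshold. The gene that passed was Sod1, at 13.16 and 13.23 with siRNA #2 against 13.39 and 13.33 with siRNA #1 (-0.16, SE 0.04, limma adjusted p = 0.0287). It did not pass in the fit over all probe sets (limma adjusted p = 0.0578 for the same probe set). There 0 of the 23 were called, and 2.91% of all probe sets were. At the looser unadjusted p under 0.05 there were 8 of the 23, and no share of all probe sets is given at that threshold. Gpx3 differed between the siRNAs by 0.07 (95% confidence interval -0.10 to 0.23), Nqo1 by 0.03 (-0.20 to 0.26), Mgst1 by -0.10 (-0.42 to 0.22) and Hmox1 by 0.24 (0.06 to 0.43, limma adjusted p = 0.0931). The difference of -0.15 in Sod2 did not pass either (-0.27 to -0.03, limma adjusted p = 0.101).

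The regulators of the NRF2 pathway went both ways, with 4 of 13 measured genes higher, 3 lower and 6 not called in the mean of both siRNAs (list median -0.06). With averaged probe sets 2 were higher and 1 lower, in a fit that called 6847 genes, against 7647 with the brightest probe sets. In the mean of both, 20.3% of all genes were called higher and 21.7% lower, the background for each pathway list below. Nfe2l2 read 9.99 and 9.94 with Ncl siRNA #1, 10.06 and 10.08 with Ncl siRNA #2, and 10.46 and 10.38 in the control siRNA arrays, and fell by 0.40 (SE 0.06, limma adjusted p = 8.46e-06). Keap1 fell by 0.44 (SE 0.08, limma adjusted p = 1.24e-04), and Bach1 rose by 0.41 (SE 0.07, limma adjusted p = 2.42e-05). Each of these 3 genes had another, dimmer probe set that did not pass in the mean of both, at -0.04 for Nfe2l2, 0.31 for Keap1 and -0.30 for Bach1. Each call was lost when a gene's probe sets were averaged (-0.22, -0.07 and 0.06). With siRNA #1 alone the dimmer Keap1 probe set was called higher (0.46, limma adjusted p = 0.035 over probe sets). The brighter one was called lower (-0.36, adjusted p = 0.0104). Sqstm1, the autophagy receptor p62 that binds KEAP1, rose by 0.82 (SE 0.06, limma adjusted p = 1.83e-10), and Gsk3b, a kinase that marks NRF2 for degradation, rose by 0.62 on its brightest probe set (SE 0.08, adjusted p = 4.60e-07), with 2 of its 6 probe sets called higher and 1 lower.

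Among other NRF2 target genes, 9 of 16 measured (56.2%) fell, 1 (6.25%) rose and 6 were not called. Of all genes 21.7% were called lower and 20.3% higher. The list median was -0.38, beside -0.05 for all genes. At a change of at least 2-fold 3 of the 16 were lower, where 1136 of all 18194 genes were called in either direction. Without that fold limit, the counts of 9, 1 and 6 were the same with each siRNA alone, but both comparisons share the control arrays. Cbr3, a carbonyl reductase, fell by 1.87 (SE 0.06, limma adjusted p = 2.15e-16), with readings of 10.19 and 10.04 for Ncl siRNA #1, 9.81 and 9.69 for Ncl siRNA #2, and 11.80 and 11.81 in the control siRNA arrays. Pir, which encodes pirin, an iron-binding nuclear protein, fell by 1.30 (SE 0.10, limma adjusted p = 2.29e-10). Ephx1, the microsomal epoxide hydrolase, was the gene that rose, by 1.14 (SE 0.09, limma adjusted p = 3.66e-10). Airway markers, with a list median of -3.14, were lower in the same arrays, and their part in this list was not tested.

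Among glutathione peroxidases and transferases beyond Gpx3 and Mgst1, 6 of 21 measured genes rose, 9 fell and 6 were not called (list median -0.25). Gsto1, an omega-class glutathione transferase, rose by 2.04 (SE 0.05, limma adjusted p = 7.55e-19), and Gpx8, a peroxidase of the endoplasmic reticulum, by 0.89 (SE 0.11, adjusted p = 1.21e-06). Gstt2 fell to 35.4% of control (log2 SE 0.10, limma adjusted p = 4.37e-11) and Gsta3 fell by 1.27 (SE 0.13, adjusted p = 4.12e-08), both glutathione transferases. In the synthesis, uptake and recycling of glutathione 3 of 13 rose, 4 fell and 6 were not called (list median -0.02). Glrx2, a glutaredoxin of mitochondria and nucleus, rose by 0.17 (SE 0.06, limma adjusted p = 0.0165), a call lost without either control array or either array of siRNA #2. Chac1, which degrades glutathione, fell by 1.08 (SE 0.13, limma adjusted p = 6.84e-07), and Gsr, which reduces oxidised glutathione, fell by 0.63 (SE 0.06, adjusted p = 1.05e-08).

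Thioredoxins, peroxiredoxins and sulfiredoxin had 3 of 10 measured genes higher, 4 lower and 3 not called (list median -0.08). Txnip, the inhibitor that binds thioredoxin, read 11.60 and 11.59 with Ncl siRNA #1, 11.23 and 11.29 with Ncl siRNA #2, and 9.71 and 9.67 in the control siRNA arrays. It rose by 1.73 (SE 0.05, limma adjusted p = 7.00e-17), and Nxn, a thioredoxin-like protein called nucleoredoxin, rose by 1.49 (SE 0.07, adjusted p = 6.52e-14). Txnrd3, a thioredoxin reductase best known from testis, fell by 0.94 (SE 0.12, limma adjusted p = 1.49e-06). Srxn1, sulfiredoxin, which repairs overoxidised peroxiredoxins, fell by 0.49 (SE 0.09, limma adjusted p = 1.69e-04) on its brightest probe set, and 1 of its 4 probe sets was called.

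Of 9 other genes of superoxide and peroxide removal, 3 rose, 5 fell and 1 was not called (list median -0.26). Cat, the peroxisomal catalase, fell by 0.76 (SE 0.08, limma adjusted p = 5.60e-08), and Msrb2, a mitochondrial methionine sulfoxide reductase, fell by 1.58 (SE 0.11, adjusted p = 1.46e-10). Pon2, an intracellular paraoxonase, rose by 1.67 (SE 0.09, limma adjusted p = 1.32e-12), and Msrb1, a selenium-containing methionine sulfoxide reductase, by 0.65 (SE 0.07, adjusted p = 1.94e-07). For haem and iron, which Hmox1 links to this system, 2 of 15 rose, 5 fell and 8 were not called (list median -0.05). Slc40a1, the iron exporter ferroportin, rose by 1.47 (SE 0.09, limma adjusted p = 2.89e-11) and Cpox, an enzyme of haem synthesis, by 0.23 (SE 0.08, adjusted p = 0.0206). Blvrb, which reduces biliverdin and flavins, fell by 1.33 (SE 0.11, limma adjusted p = 1.25e-09), and the transferrin receptor gene Tfrc fell by 0.42 (SE 0.04, adjusted p = 5.45e-08). The Cpox call was lost without control replicate 1 (adjusted p = 0.213) and without either array of siRNA #2 (0.0591 and 0.0882).

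**Figure D5:**
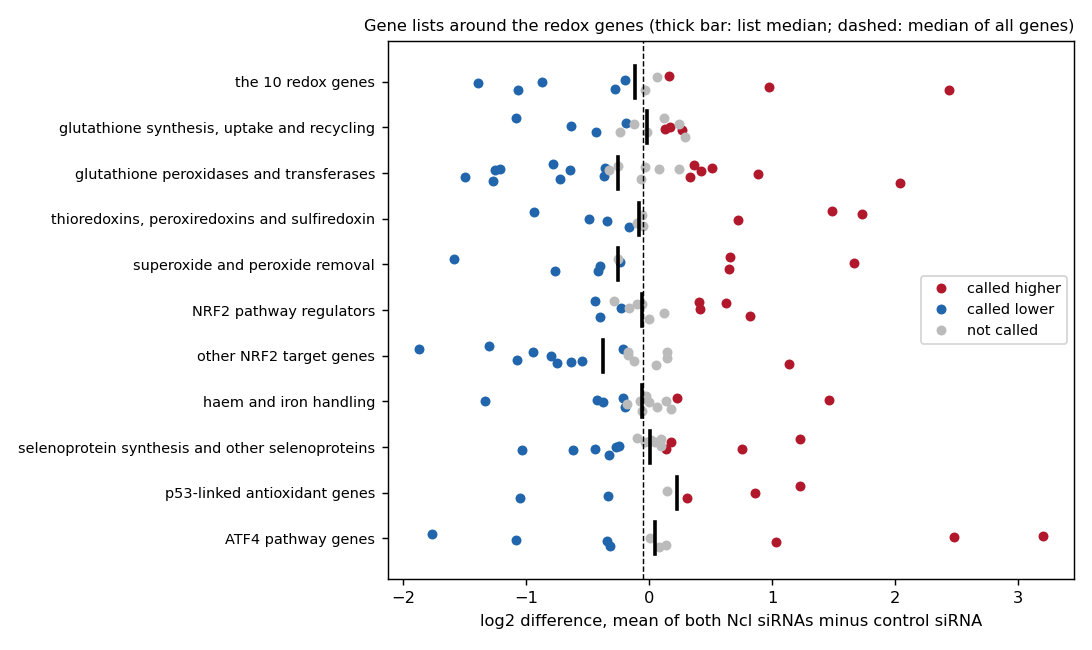
Log2 difference of the mean of both Ncl siRNAs minus the control siRNA for each measured gene of 10 lists around the redox genes, with the redox genes themselves at the top. Red points were called higher, blue points lower and grey points not, at a limma adjusted p under 0.05. The list median (thick bar) is -0.38 for other NRF2 target genes, against a median of -0.05 for all genes (dashed).

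Over all 10 lists, 32 of 130 measured genes (24.6%) rose and 51 (39.2%) fell, beside 20.3% and 21.7% of all genes. These shares of all genes include dim genes, and no share matched for signal level is given here. Among genes above the median signal alone 6037 were called, against 7647 of all 18194. That first count comes from fewer tested genes, so it does not mean a smaller share. Whether the lists differ from genes of like signal was not tested. Selenium links Gpx3 and Txnrd1, whose proteins carry selenocysteine. Of 17 measured genes of selenoprotein synthesis and other selenoproteins, 4 rose, 6 fell and 7 were not called (list median 0.01). Selenon rose by 1.23 (SE 0.13, limma adjusted p = 8.84e-08) and Selenos by 0.76 (SE 0.06, adjusted p = 2.19e-10), both selenoproteins of the endoplasmic reticulum. Selenow fell by 1.04 (SE 0.06, limma adjusted p = 8.29e-12), on 1 of its 2 probe sets, and the call was lost without suffixed probe sets (-0.22, adjusted p = 0.122), while Sephs2, which makes the selenium donor, fell by 0.62 (SE 0.05, adjusted p = 1.53e-09). In a list of 6 measured antioxidant genes linked to p53, 3 rose, 2 fell and 1 was not called (list median 0.23). Sesn3, a sestrin, rose by 1.23 (SE 0.08, limma adjusted p = 6.85e-11) and Trp53inp1 by 0.86 (SE 0.04, adjusted p = 4.24e-14). Tigar, which lowers glycolytic flux, fell by 1.05 (SE 0.10, limma adjusted p = 8.65e-09), and Sesn2 fell by 0.33 on its brighter probe set (SE 0.08, adjusted p = 9.32e-04) while the other was called higher.

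The ATF4 pathway, which also drives Slc7a11 in stressed cells, had 3 of 10 genes higher, 4 lower and 3 not called (list median 0.05). With averaged probe sets 5 were higher, in a fit that called 6847 genes, against 7647 with the brightest probe sets. Without suffixed probe sets, a setting that can drop a gene, 0 were lower. Atf3, a stress-induced transcription factor, rose by 3.21 (SE 0.09, limma adjusted p = 2.47e-17) and Ddit4, an inhibitor of mTOR signalling, by 2.48 (SE 0.05, adjusted p = 1.91e-20). Nupr1, a stress-induced nuclear protein, fell by 1.77 (SE 0.15, limma adjusted p = 3.61e-09), and Phgdh, the first enzyme of serine synthesis, fell by 1.08 (SE 0.06, adjusted p = 2.79e-12).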

How the data were processed

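Total RNA was extracted with a Qiagen kit and labelled with an Affymetrix IVT kit, per the labels' protocols. The authors deposited log2 probe set values with nearly equal quartiles on every array, and how background, summarisation and normalization were handled is not given in the sources used here. No scaling was added. Array medians ran from 5.73 to 5.79. No detection calls were used, so a reading is called faint where it lies below the lower quartile of its array (4.17 to 4.32). The number of arrays limits the precision.

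Of 45101 probe sets, 34958 carried 1 symbol in the platform annotation, 932 several and 9211 none, and only those with 1 symbol entered the gene tests. No probe set with several symbols named a redox gene. Each gene took its probe set with the highest mean over all 6 arrays, which gave 18194 genes. limma 3.58.1 (R 4.3.3) was fitted to all 6 arrays with 1 mean per group and variances that follow the mean (residual degrees of freedom 3, prior 17.5). Benjamini-Hochberg adjustment covered every gene tested, and an adjusted p under 0.05 counted as a call. The same model was fitted to 45037 probe sets without array controls. The procedure was tested on simulated data.

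The members and gene lists were chosen with earlier results of these data known. All 10 members are named, with Ncl, Nfe2l2, Keap1 and Bach1. From each pathway list the 2 highest and 2 lowest called changes are named. Of 140 listed pathway genes 130 were measured. Alternatives were quantile normalization, median centring, averaging or leaving out probe sets, leaving out dim genes, other variance settings, array weights, only the groups compared, the replicate block, stricter thresholds and leaving out each array.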

Additional observations from a re-analysis of the deposited data

Results flagged for a closer look

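Sod1 was picked out because its level differed between the 2 Ncl siRNAs by a test of the difference itself. It was lower with siRNA #2, at -0.16 for siRNA #2 minus siRNA #1 (limma adjusted p = 0.0287, both siRNA #2 arrays below both siRNA #1 arrays). The adjusted p was above 0.05 with quantile normalization (0.0629), with the mean of all probe sets (0.170) and with variances that follow no trend (0.336). The call was also lost without replicate 1 of siRNA #1 (change -0.13) or either replicate of siRNA #2 (-0.13 and -0.20).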

How the results depend on the processing

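At least 2-fold change left 1 redox gene higher and 2 lower in the mean of both siRNAs, 1 and 1 with siRNA #1, and 2 and 2 with siRNA #2. It left 1136, 1088 and 1285 genes in these comparisons, and 56 genes and 0 redox genes between the siRNAs. Variances without a trend gave 3 redox genes lower with siRNA #1, and between the siRNAs 142 genes called and 0 redox genes lower. Between the siRNAs, averaged probe sets gave 790 genes and 0 redox genes lower, and an adjusted p under 0.01 gave 633 and 0. Quantile normalization gave 0 redox genes lower but 1 of their probe sets, and no share of all probe sets is given there. Hmox1 made 1 redox gene higher with siRNA #2 than with siRNA #1 among genes above the median signal and in the fit of only the groups compared. Counts of the pathway lists also moved in some settings, as given for the NRF2 and ATF4 lists.

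Leaving out each array in turn gave 6226 to 8419 genes for the mean of both, 5565 to 7599 with siRNA #1, 5553 to 8003 with siRNA #2 and 451 to 4301 between the siRNAs. The redox genes higher were 2 to 4, 2 to 3, 2 and 0 in that order, and those lower 5, 3 to 5, 5 and 0 to 3. The highest counts between the siRNAs, 4301 genes and 3 redox genes, came without replicate 2 of siRNA #1. The redox probe sets called, of 23, were 13 to 17, 11 to 14, 12 to 15 and 0 to 6. No share of all probe sets called is given for these fits, so whether these ranges differ from that background was not tested.

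Signs turned for Txnrd1 with averaged probe sets, to -0.72 for the mean, -0.87 with siRNA #1 and -0.58 with siRNA #2. The other turns were between values that did not pass. Gclc with siRNA #2 read -0.0379 without suffixed probe sets, Nqo1 between the siRNAs -0.0029 with centred arrays, and Slc7a11 0.0146 for the mean after quantile normalization and, with siRNA #2, -0.0241 with centred arrays and -0.0168 with averaged probe sets. Without single arrays, Mgst1 between the siRNAs ran from -0.31 to 0.11, Nqo1 from -0.0483 to 0.11 and Txnrd1 from -0.0104 to 0.12. Txnrd1 with siRNA #1 ran from -0.0317 to 0.10, and Slc7a11 from -0.0890 to 0.0201 for the mean, from -0.20 to 0.0136 with siRNA #1 and from -0.0456 to 0.10 with siRNA #2. The cause of these moves was not tested, and leaving out a control array leaves 1, which is assumed to vary like the other groups.

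Groups share replicate numbers, but the deviations of same-numbered arrays from their group means correlated at 0.01, -0.02 and -0.0046 across genes, so the numbers were not taken to pair the arrays. With the replicate block 7632 genes were called for the mean (7647 without), 2 redox genes were higher and 5 lower, and Gclc (adjusted p = 0.0563) and Sod1 with siRNA #1 (adjusted p = 0.0575) lost their calls. Between the siRNAs 1 redox probe set was called with the block and 0 without, and no share of all probe sets is given with the block. The fit of only the groups compared has no value for the mean of both siRNAs, which uses all arrays.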

Other observations

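Between the Ncl siRNAs, 5 of the 130 measured genes of the pathway lists were higher with siRNA #2 and 27 were lower. Of all genes, dim ones included, limma called 2.30% higher and 6.18% lower. The genes named here were chosen after their values were seen. Gsto1 read 12.52 and 12.57 with siRNA #2 against 11.95 and 11.87 with siRNA #1, a difference of 0.64 (SE 0.06, limma adjusted p = 1.32e-07). Fth1, the heavy chain of ferritin, which stores iron, was higher by 0.24 (SE 0.04, limma adjusted p = 0.00162), and Slc40a1, the iron exporter, was lower by -0.61 (SE 0.11, adjusted p = 0.00119). Sesn3 was lower by -0.65 (SE 0.10, limma adjusted p = 1.78e-04), with 8.59 and 8.63 against 9.32 and 9.18, and Selenop, the plasma carrier of selenium, was lower by -0.49 (SE 0.08, adjusted p = 4.24e-04). The control arrays give no mean to these differences, but share in the estimate of spread.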
